A study of Mus musculus with 18 samples.

Results

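Exercise on the low-fat diet was examined by setting the 3 liver libraries titled LF+Ex against the 3 titled LF, 6 of the 18 libraries of the study. The members were taken by these titles, and the comparison ran over every gene with an RPKM of at least 1 in at least 3 of the 18 libraries, 10358 genes in all. RPKM is the number of reads per kilobase of transcript and per 1e6 reads. All mice were wild-type C57BL/6J. Diet and Ex began at 5 weeks of age, and liver polyA RNA was sequenced at 62 weeks. The labels give LF, HF, CR and Ex only as abbreviations, and low-fat diet, high-fat diet, calorie restriction and exercise are the usual readings. They name neither the form and amount of exercise, nor the sex of the mice, nor whether a library is 1 animal, so each p-value measures the spread between libraries, which may be technical. The other groups used below are LF+CR, HF, HF+Ex and HF+CR, each with 3 libraries of the same strain and ages. HF+CR enters no tested comparison but is part of the filter, the fit and the means over the 18 libraries.

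The liver is one of the organs in which male and female rodents differ most in gene expression. The pituitary releases growth hormone in separated pulses in males and almost continuously in females, and the hepatocyte reads the pattern through the growth hormone receptor and the transcription factor STAT5B. Pulsed signalling supports male-biased genes such as the major urinary proteins (Mup), which carry pheromones into urine, and continuous signalling supports female-biased genes such as Cyp2b9 and Cyp2a4, which encode cytochrome P450 enzymes. Exercise also draws on the liver for glucose and for the oxidation of fatty acids, and the liver secretes proteins into the blood in response, the hepatokines.

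The 6 libraries held 9071 to 9965 genes at 1 RPKM or more. Their read totals, in units of 1e6 reads and worked out from the lowest RPKM values and annotated transcript lengths, were about 23.8 to 37. Hepatocyte markers were abundant in all 6 libraries, with Ttr, the carrier of thyroid hormone, at 4661, 4929 and 4918 RPKM in LF and 4745, 6090.0 and 4418 RPKM in LF+Ex. Albumin (Alb), the defining product of hepatocytes, was listed at 0 in all 6, while skeletal muscle markers summed to at most 0.037 RPKM. On the log2 scale, LF libraries correlated across genes at r = 0.966 to 0.979, LF+Ex libraries at 0.976 to 0.987 and libraries of the 2 groups at 0.963 to 0.986. LF 2 was the highest of the 6 for markers of bile duct cells, LF+Ex 1 held pancreatic transcripts, and LF 2 and LF+Ex 3 stood apart in circadian genes. The values are given beside the results they touch.

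No gene passed the test between LF+Ex and LF. The limma moderated test with Benjamini-Hochberg adjustment called 0 of 10358 genes (0%) at an adjusted p under 0.05, and the smallest adjusted p was 0.243. At an unadjusted p under 0.05 there were 944 genes, 99 of them higher (0.956% of all genes) and 845 lower (8.16%) in LF+Ex. The median difference of all genes was -0.13 on the log2(RPKM + 1) scale, with a median standard error of 0.15. Median-of-ratios scaling moved the median to 0.00, and the share of higher genes among those at an unadjusted p under 0.05 went from 10.5% to 61.5% (54.8% after quantile normalization). The share of higher genes thus depends on the scaling.

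Because no gene was called, genes are described by whether the 3 LF+Ex libraries all lay above, or all below, the 3 LF libraries. Of all genes tested 86 (0.830%) were higher in this sense and 1178 (11.4%) lower. With median-of-ratios scaling the shares were 4.19% higher and 3.16% lower. Without LF 2 and LF+Ex 3, a setting chosen after seeing the data, 4 genes were called, namely Cidea, Cyp2b9, Eif4ebp3 and Pigp. Without LF+Ex 3 alone 4 genes were called as well, Cyp2a22, Cyp2b9, Eif4ebp3 and Pigp.

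**Figure D1:**
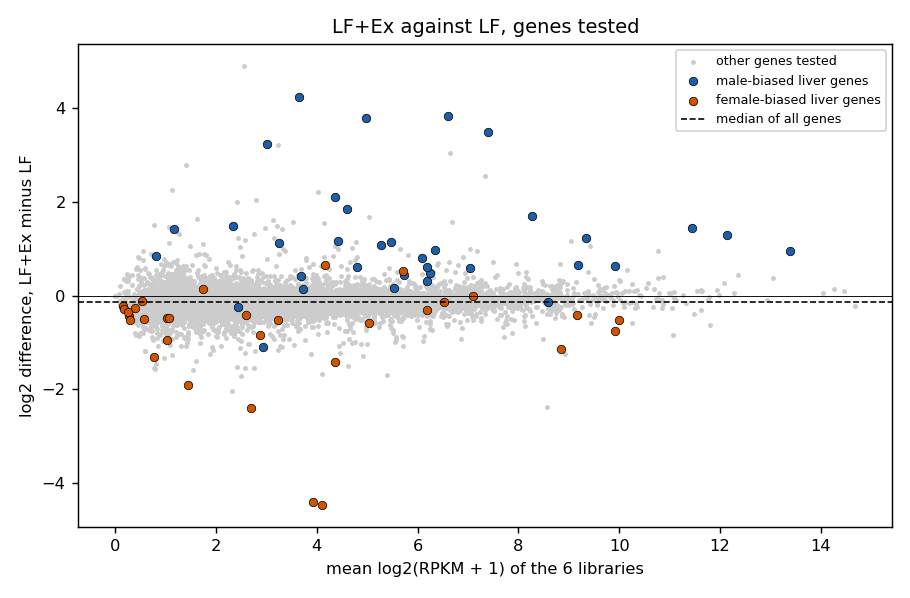
Each point is 1 of the 10358 genes tested, with its mean log2(RPKM + 1) over the 6 libraries on the horizontal axis and its log2 difference, LF+Ex minus LF, on the vertical axis. Male-biased genes (blue) lie mostly above and female-biased genes (orange) mostly below the dashed median of all genes at -0.13.

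Members of the female-biased and male-biased lists were chosen with earlier results of these data known. Their counts beside those of all genes are therefore a description and not a test. Of 31 tested female-biased liver genes, 8 lay below LF in all 3 LF+Ex libraries and 0 above, against 11.4% and 0.830% of all genes. Their median difference was -0.49, and -0.39 with median-of-ratios scaling. It was -0.91 with a pseudocount of 0.1, and the 8 genes became 5 with quantile normalization, under which 3.55% of all genes were lower. limma called 0 of them, and 8 had an unadjusted p under 0.05, all lower. Cyp2b9 (NM_010000, chromosome 7, 26173350 to 26210661, RefSeq gene span on GRCm38.p6), a cytochrome P450, had the smallest p of the comparison. It stood at 85.2, 66.2 and 57.8 RPKM in LF 1, 2 and 3 and 0.244, 0.969 and 13.7 RPKM in LF+Ex 1, 2 and 3. All 3 LF libraries were high and LF+Ex 1 and 2 were near the floor, with LF+Ex 3 between. The difference was -4.40 ± 0.74 (SE) with an adjusted p of 0.243, and -5.48 with an adjusted p of 0.00170 without LF+Ex 3.

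The organic anion transporters Slc22a27 and Slc22a26 had the same order. Slc22a27 stood at 3.63, 6.45 and 3.25 RPKM in LF 1, 2 and 3 and 0.0718, 0.708 and 0.487 RPKM in LF+Ex 1, 2 and 3, a difference of -1.92 ± 0.36 (adjusted p = 0.243). Slc22a26 stood at 1.21, 2.63 and 1.41 RPKM in LF and 0.0137, 0.117 and 0.136 RPKM in LF+Ex, a difference of -1.30 ± 0.24 (adjusted p = 0.243), and passed with a pseudocount of 0.1 (adjusted p = 0.0378). In both genes each LF library was above each LF+Ex library, and no LF+Ex library reached 1 RPKM. These 2 genes and Slc22a28 are close paralogs, so how their shared reads were divided is uncertain.

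Cyp2a22 stood at 18.4, 18.4 and 7.84 RPKM in LF 1, 2 and 3 and 1.03, 0.825 and 5.15 RPKM in LF+Ex 1, 2 and 3, a difference of -2.40 ± 0.46 (adjusted p = 0.243). LF 3 and LF+Ex 3 were nearest to each other and the groups did not overlap. Cyp2a4, a steroid hydroxylase whose reads can be shared with Cyp2a5 and Cyp2a22, stood at 35, 402 and 34.9 RPKM in LF and 0.588, 1.63 and 10.6 RPKM in LF+Ex, with LF 2 far above all others and a difference of -4.47 ± 1.55 (adjusted p = 0.516). Abcd2, a peroxisomal fatty acid transporter, stood at 8.75, 8.17 and 9.43 RPKM in LF and 3.25, 4.15 and 6.37 RPKM in LF+Ex, a difference of -0.84 ± 0.20 (adjusted p = 0.357). The remaining members without overlap, Hao2 and Atp6v0d2, were under 1 RPKM in all 6 libraries.

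Other female-biased genes overlapped. Cd36, a fatty acid uptake receptor, stood at 36.5, 36.4 and 25.6 RPKM in LF and 9.05, 4.7 and 32.6 RPKM in LF+Ex, where LF+Ex 3 lay within the LF range while LF+Ex 1 and 2 were low. Cyp2b10, a target of the receptor CAR, stood at 1.64, 2.78 and 1.26 RPKM in LF and 0.0655, 0.225 and 1.4 RPKM in LF+Ex, again with LF+Ex 3 inside the LF range. Cux2, a transcription factor of female liver, was at most 0.462 RPKM in all 6 libraries. Cyp2b13 was at most 0.785 RPKM. The 4 members with a positive difference were Nnmt, Cyp17a1, Fmo4 and Cyp2c37, at 0.52, 0.65, 0.14 and 0.00.

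Of 35 tested male-biased liver genes, 17 lay above LF in all 3 LF+Ex libraries and 0 below, against 0.830% and 11.4% of all genes. This list, too, was chosen with earlier results known, so the comparison is a description. Their median difference was 0.97, and 1.13 with median-of-ratios scaling, under which 17 again did not overlap against 4.19% of all genes. limma called 0 of them, and 17 had an unadjusted p under 0.05, all higher. These are not all the same genes as the 17 without overlap. Serpina3k (NM_011458, chromosome 12, 104338486 to 104345739), a protease inhibitor secreted by hepatocytes, had the smallest p of the list. It stood at 1531, 1137 and 2816 RPKM in LF 1, 2 and 3 and 6437, 4671 and 3275 RPKM in LF+Ex 1, 2 and 3. The lowest LF+Ex library, LF+Ex 3, was just above the highest LF library, LF 3. The difference was 1.44 ± 0.36 (adjusted p = 0.428).

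Serpina1e, an alpha-1-antitrypsin of the same class, stood at 25.7, 27.1 and 171 RPKM in LF 1, 2 and 3 and 1253, 773 and 185 RPKM in LF+Ex 1, 2 and 3. LF 3 was several times above LF 1 and 2 and nearly level with LF+Ex 3, and LF+Ex 1 and 2 were far above. Its difference was 3.48 ± 0.97 (adjusted p = 0.506). Cyp2d9, a male-biased steroid hydroxylase, stood at 409, 308 and 599.7 RPKM in LF and 1244, 1014 and 766 RPKM in LF+Ex, a difference of 1.22 ± 0.34 (adjusted p = 0.506). Hsd3b5, a steroid reductase, stood at 0.468, 0 and 14.9 RPKM in LF and 90.4, 71.3 and 23.2 RPKM in LF+Ex, a difference of 4.25 ± 1.32 (adjusted p = 0.512). In both genes LF 3 was the highest LF library and LF+Ex 3 the lowest LF+Ex library. Reads of the Serpina1 and Hsd3b families may be shared between members.

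Of the major urinary proteins 5 were without overlap, with a wide spread within groups. Mup7 stood at 15.1, 9.79 and 96 RPKM in LF 1, 2 and 3 and 518, 324 and 287 RPKM in LF+Ex 1, 2 and 3, a difference of 3.83 ± 1.20 (adjusted p = 0.512). Mup1 and Mup12 had differences of 3.78 ± 1.34 and 3.24 ± 1.22 and Mup21 of 1.69 ± 0.72, all without overlap. Mup20, known as darcin, the pheromone that marks male urine, stood at 4563, 10439 and 9572 RPKM in LF and 13873, 17743 and 13665 RPKM in LF+Ex. Its difference was 0.96 ± 0.44 (adjusted p = 0.538), and LF 1 was the low library. Mup3 and Mup11 overlapped, since LF 3 was above LF+Ex 3 in both. The split of reads among Mup genes is uncertain.

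Complement components, a bile acid enzyme and other enzymes of the male-biased list were also without overlap, and none was called. C6, a protein of the membrane attack complex, stood at 20.1, 39.3 and 29.9 RPKM in LF and 82.8, 73.8 and 44.5 RPKM in LF+Ex (difference 1.15 ± 0.36). C8a and C8b, subunits of complement C8, had differences of 0.59 ± 0.30 and 0.97 ± 0.36. Cyp7b1, an oxysterol hydroxylase of the alternative bile acid pathway, stood at 15.8, 27.9 and 37.1 RPKM in LF and 81.7, 43.2 and 46.6 RPKM in LF+Ex (difference 1.08 ± 0.62). Cyp2f2, a cytochrome P450, stood at 507, 383 and 515 RPKM in LF and 863, 725 and 627 RPKM in LF+Ex (difference 0.66 ± 0.21). Selenbp2, Susd4 and Sult5a1 also did not overlap, with differences of 1.11, 1.49 and 1.43.

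Members that overlapped included genes often used to define male liver. Slco1a1, an organic anion transporter, stood at 8.69, 4.14 and 40.1 RPKM in LF and 70.1, 61.4 and 20.3 RPKM in LF+Ex, where LF 3 was above LF+Ex 3. Elovl3, a fatty acid elongase, stood at 51.9, 53.9 and 47 RPKM in LF and 97.6, 45.3 and 159 RPKM in LF+Ex, with LF+Ex 2 level with LF. Cyp4a12a, a fatty acid hydroxylase, stood at 58.1, 112 and 39.6 RPKM in LF and 90, 58.7 and 96.7 RPKM in LF+Ex, with no separation of the groups, and its near copy Cyp4a12b had a difference of 1.16 ± 0.55. Bcl6, a repressor of female-biased genes, stood at 17.4, 2.52 and 20.4 RPKM in LF and 6.73, 2.06 and 4.99 RPKM in LF+Ex, with LF 2 and all LF+Ex libraries low (difference -1.10 ± 0.73). Gstp2, a glutathione transferase, and Cyp2c29 were the other members with a negative difference, at -0.24 and -0.13.

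**Figure D2:**
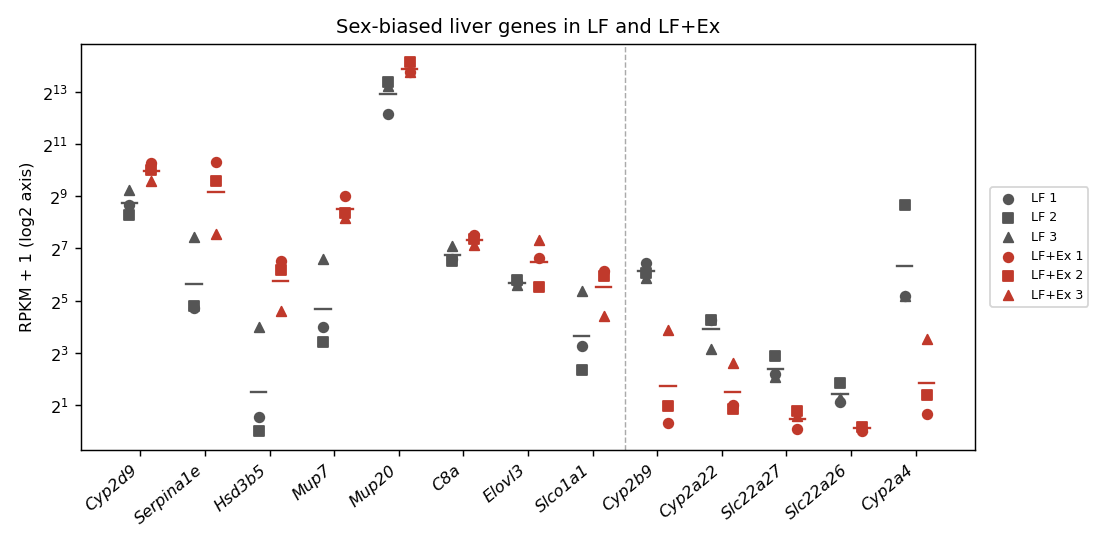
RPKM + 1 on a log2 axis in the 3 LF (grey) and 3 LF+Ex (red) libraries, with a bar at the mean of the log2 values, for 8 male-biased genes left of the dashed line and 5 female-biased genes right of it. LF 3 (grey triangles) is the highest LF library and LF+Ex 3 (red triangles) the lowest LF+Ex library for Serpina1e, Hsd3b5 and Mup7, and for Cyp2b9 all LF libraries lie above all LF+Ex libraries.

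Regulators of the sex-biased programme differed in how far the groups lay apart. Ghr, the growth hormone receptor, stood at 41.6, 31.1 and 60 RPKM in LF and 42.7, 49.6 and 52.3 RPKM in LF+Ex. Stat5b, the transducer of its signal, stood at 8.87, 9.3 and 8.89 RPKM in LF and 6.95, 7.14 and 6.66 RPKM in LF+Ex, all LF+Ex libraries below LF (difference -0.34 ± 0.13, adjusted p = 0.519, and -0.20 with median-of-ratios scaling). Prlr, the prolactin receptor, which is female-biased in liver, stood at 20.9, 15.4 and 17.7 RPKM in LF and 8.19, 7.9 and 10.7 RPKM in LF+Ex, all LF+Ex libraries below LF (difference -0.94 ± 0.26, adjusted p = 0.506). Onecut1, which encodes HNF6, a factor that binds sex-biased genes, stood at 5.56, 4.4 and 5.22 RPKM in LF and 31.4, 17.5 and 6.13 RPKM in LF+Ex, with LF+Ex 1 high and LF+Ex 3 close to LF (difference 1.43 ± 0.83). Socs2, a feedback inhibitor induced by growth hormone, stood at 3.87, 3.5 and 1.29 RPKM in LF and 8.49, 5.54 and 2.61 RPKM in LF+Ex, and Igf1, the main growth factor the liver makes under growth hormone, at 19.8, 16 and 26.5 RPKM in LF and 33.1, 29.4 and 21 RPKM in LF+Ex. Of 24 tested genes of the growth hormone and IGF1 axis 1 was higher without overlap (4.17%, beside 0.830% of all genes) and 3 lower (12.5%, beside 11.4%), with a median of 0.02 beside -0.13 for all genes.

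The mean deviation of each list from its mean over the 18 libraries shows how the libraries are ordered. For male-biased genes it was -0.26, -0.45 and 0.65 in LF 1, 2 and 3 and 1.52, 1.21 and 0.87 in LF+Ex 1, 2 and 3. LF 3 was thus nearer to the LF+Ex libraries than to LF 1 and 2. For female-biased genes it was 0.20, 0.16 and 0.01 in LF and -0.77, -0.73 and -0.51 in LF+Ex, with the groups apart by more than the spread within them. High male-biased and low female-biased levels were not particular to LF+Ex. HF+CR 1, 2 and 3 stood at 1.96, 1.17 and 0.07 for male-biased and -1.17, -0.82 and -0.58 for female-biased genes. Leaving out LF 3 raised the male-biased members without overlap from 17 to 26 and the female-biased from 8 to 16, and leaving out LF+Ex 3 raised the latter to 13. Fewer libraries make a lack of overlap more frequent in every gene: without LF 3 it held for 3.31% of all genes higher and 31.7% lower, and without LF+Ex 3 for 16.9% lower. Without the 3 libraries that hold pancreatic transcripts (LF+Ex 1, LF+CR 1 and HF+CR 1) the medians were 0.80 and -0.45, and without LF 2 and LF+Ex 3 they were 1.0 and -0.50.

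**Figure D3:**
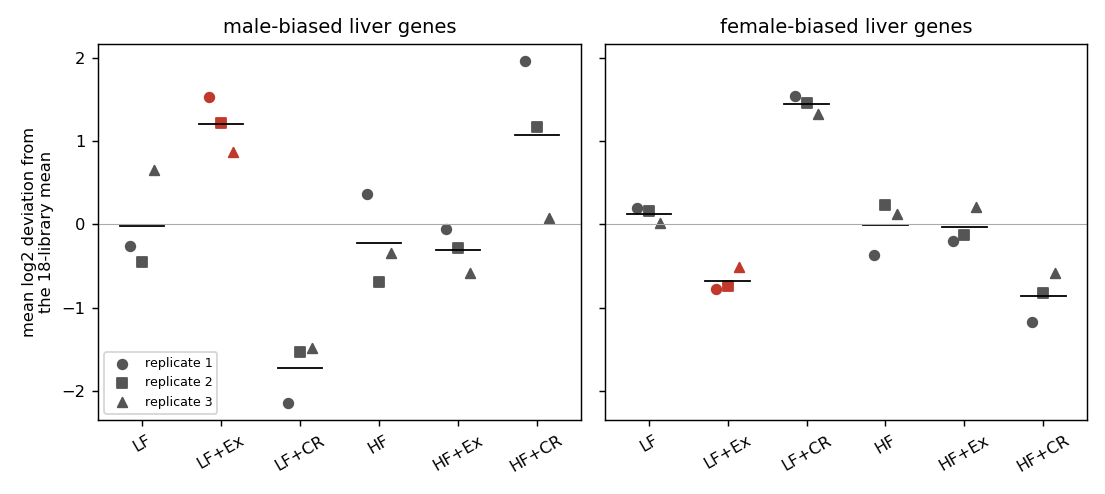
Mean log2 deviation of the 35 male-biased and 31 female-biased genes from their mean over the 18 libraries, for each library of the 6 groups, with a bar at the group mean. LF+Ex (red) lies at 0.87 to 1.52 for male-biased and -0.77 to -0.51 for female-biased genes, and HF+CR at 0.07 to 1.96 and -1.17 to -0.58.

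Promoters of the sex-biased genes were searched for 2 sets of letters: TTCNNNGAA, the palindrome that STAT5 binds, and ATCAAT on either strand, the core of HNF6 sites. Genes and letters were chosen after the gene values were known, and a match is a description of the sequence. In the 250 bases before the start in RefSeq's promoter table (GRCm38.p6), TTCNNNGAA was found in 4 of 26 male-biased and 3 of 22 female-biased genes with a window, against 7.0% of the 8276 tested genes with one and 7.02% of all windows. ATCAAT was found in 7 of 26 and 4 of 22, against 4.69% of tested genes and 6.72% of all windows. Of the 7 male-biased genes 4 were Mup genes, which are copies of each other. Of the 5 members without overlap that hold a match, C8a is not shown because another RefSeq transcript of the gene reaches into its window. The other 4 windows are shown 5′ to 3′ on the gene's strand to let the matched letters be seen in place, with the matches in capitals.
Mup21, chr4:62150842-62151091, minus strand: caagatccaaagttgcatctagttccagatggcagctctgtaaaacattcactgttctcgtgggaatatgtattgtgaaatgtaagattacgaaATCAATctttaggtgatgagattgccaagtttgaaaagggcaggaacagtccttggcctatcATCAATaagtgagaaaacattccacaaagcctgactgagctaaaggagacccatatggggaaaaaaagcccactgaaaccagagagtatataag
Mup7, chr4:60070476-60070725, minus strand: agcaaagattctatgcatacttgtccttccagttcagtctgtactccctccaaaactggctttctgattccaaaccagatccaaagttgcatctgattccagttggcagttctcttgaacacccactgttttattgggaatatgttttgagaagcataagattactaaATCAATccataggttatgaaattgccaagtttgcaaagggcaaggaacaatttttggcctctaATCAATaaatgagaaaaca
Serpina1e, chr12:103956898-103957147, minus strand: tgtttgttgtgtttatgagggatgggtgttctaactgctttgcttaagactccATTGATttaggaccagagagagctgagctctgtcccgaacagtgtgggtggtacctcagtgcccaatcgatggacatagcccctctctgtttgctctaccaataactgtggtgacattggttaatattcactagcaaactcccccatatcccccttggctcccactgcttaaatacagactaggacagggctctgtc
Slc22a26, chr19:7802668-7802917, minus strand: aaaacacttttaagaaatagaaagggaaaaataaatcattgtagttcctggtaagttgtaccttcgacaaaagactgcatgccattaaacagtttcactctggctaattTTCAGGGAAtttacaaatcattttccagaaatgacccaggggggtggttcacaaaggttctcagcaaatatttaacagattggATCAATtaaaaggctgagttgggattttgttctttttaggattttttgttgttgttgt
ATCAAT begins 156 and 94 bases before the start in Mup21, and 82 and 19 bases before it in Mup7. Serpina1e holds the reverse complement ATTGAT 197 bases before its start. Slc22a26 holds TTCAGGGAA 141 bases and ATCAAT 58 bases before its start. The Mup21, Mup7 and Serpina1e values were higher in LF+Ex and the Slc22a26 values lower, without overlap, as given above.

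Outside the sex-biased lists the genes with the smallest p were of several kinds, and none passed. Among those higher in all LF+Ex libraries, Adrb3, a beta-adrenergic receptor, stood at 1.55, 0.757 and 1.84 RPKM in LF 1, 2 and 3 and 2.75, 3.54 and 3.75 RPKM in LF+Ex 1, 2 and 3 (difference 0.89 ± 0.18, adjusted p = 0.249). Carmil1, a regulator of actin capping, stood at 0.899, 1.2 and 1.74 RPKM in LF and 4.89, 2.71 and 2.25 RPKM in LF+Ex (difference 0.88 ± 0.20). Glrx, a glutaredoxin that reduces protein disulfides, stood at 31.7, 29.2 and 28.5 RPKM in LF and 45.5, 37.2 and 33.8 RPKM in LF+Ex (difference 0.36 ± 0.10), a narrow gap beside the tight LF values. Pfkfb3, which makes the glycolytic activator fructose 2,6-bisphosphate, stood at 1.19, 0.963 and 1.81 RPKM in LF and 3.96, 7.46 and 1.82 RPKM in LF+Ex (difference 1.10 ± 0.32). LF+Ex 3 lay just above the highest LF library, LF 3, in that gene. Mrps36, annotated as a mitochondrial ribosomal protein, had a difference of 0.41 ± 0.12.

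For 3 other genes of that ranking the value rests on the row or on a library. Repin1, a zinc finger protein, was listed at 0 in all LF libraries and at 8.35, 4.69 and 5.25 RPKM in LF+Ex, but its RefSeq transcripts summed gave a difference of -0.18 in place of 2.79. Ppp2r5c, a phosphatase subunit, went from 0.48 to -0.31 in the same way. Rpph1, the RNA of ribonuclease P, was at most 0.237 RPKM in LF and at 8.14, 15.5 and 218 RPKM in LF+Ex 1, 2 and 3. The last of these was far above the others.

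Among genes lower in all LF+Ex libraries, Mpc1, a subunit of the mitochondrial pyruvate carrier, stood at 343, 372 and 295 RPKM in LF 1, 2 and 3 and 199, 226 and 267 RPKM in LF+Ex 1, 2 and 3 (difference -0.55 ± 0.12, adjusted p = 0.357). Glrx3, an iron-sulfur glutaredoxin, stood at 6.79, 6.12 and 6.16 RPKM in LF and 4.3, 4.01 and 3.6 RPKM in LF+Ex (difference -0.57 ± 0.11, adjusted p = 0.249). Hmgn1, a nucleosome-binding protein, stood at 30.4, 30.8 and 28.6 RPKM in LF and 22.9, 22.3 and 19.3 RPKM in LF+Ex (difference -0.46 ± 0.09), with both groups tight. Pigp, of glycosylphosphatidylinositol anchor synthesis, stood at 10.3, 8.82 and 8.31 RPKM in LF and 0.843, 2.56 and 5.33 RPKM in LF+Ex, and its difference of -1.55 became -0.79 with transcripts summed. Dlc1, a GTPase-activating protein, and Pcsk6, a proprotein convertase, had differences of -0.55 ± 0.11 and -0.45 ± 0.11. Dop1b, Mrps15 and Impa2 had differences of -0.74 ± 0.16, -0.49 ± 0.11 and -0.49 ± 0.11. With median-of-ratios scaling each of these genes kept a negative difference.

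Genes of lipid handling were dominated by the spread within groups. Cidea and Cidec, which fuse lipid droplets, stood at 26.5, 0.509 and 5.4 RPKM in LF and 0.85, 0 and 28.2 RPKM in LF+Ex and at 38.5, 28.7 and 8.92 RPKM in LF and 8.76, 2.01 and 28.9 RPKM in LF+Ex. LF 1 and LF+Ex 3 were both high in Cidea, and LF+Ex 1 and 2 were low in both genes. Plin4, a droplet coat protein, stood at 32.9, 9.14 and 6.56 RPKM in LF and 11.1, 4.38 and 21.5 RPKM in LF+Ex. Pparg, a regulator of fat storage, stood at 4.76, 9.38 and 1.97 RPKM in LF and 0.307, 2.31 and 2.1 RPKM in LF+Ex, with LF 3 below LF+Ex 2 and 3 (difference -1.24 ± 0.43). Of 23 lipid droplet genes 0 were higher and 2 (8.70%) lower without overlap, below the 11.4% of all genes, with a median of -0.22 beside -0.13. The members counted were Gpam, which starts triglyceride synthesis, and Bscl2 (seipin), with differences of -0.27 and -0.17, and -0.11 and -0.01 with median-of-ratios scaling.

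Fatty acid oxidation genes had a median of -0.27 over 44 tested, beside -0.13 for all genes, with 7 lower (15.9%) and 1 higher (2.27%) without overlap. The share of all genes was 11.4% lower and 0.830% higher, so the lower count is near that of all genes. The lower members were Acadl, Acads, Hadh, Acaa1b, Eci1, Ech1 and Aldh3a2. Aldh3a2, a fatty aldehyde dehydrogenase, stood at 259.6, 444 and 253 RPKM in LF and 175, 138 and 233 RPKM in LF+Ex (difference -0.79 ± 0.20), and Acaa1b, a peroxisomal thiolase, at 1671, 1607 and 1244 RPKM in LF and 1211, 682 and 1204 RPKM in LF+Ex (difference -0.58 ± 0.21). Cyp4a14, a PPAR alpha target, stood at 1108, 2057 and 881 RPKM in LF and 1168, 402 and 887 RPKM in LF+Ex, and Cpt1a, the entry enzyme of mitochondrial oxidation, at 231, 191 and 165 RPKM in LF and 189, 164 and 182 RPKM in LF+Ex. With median-of-ratios scaling the median of the list was -0.11, beside 0.00 for all genes.

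Most lipid synthesis genes overlapped. Fasn, the fatty acid synthase, stood at 42.6, 14.1 and 24.1 RPKM in LF and 14.3, 31.6 and 19.1 RPKM in LF+Ex and Scd1, a desaturase, at 2614, 885 and 2251 RPKM in LF and 1941, 1893 and 1609 RPKM in LF+Ex, each with differences smaller than the spread. Acsl3 was lower without overlap, at 1.12, 2.12 and 0.776 RPKM in LF and listed at 0 in all LF+Ex libraries, but its transcripts summed differed by -0.15. Insig1, which retains the sterol sensor in the endoplasmic reticulum, stood at 44.9, 21.5 and 45.3 RPKM in LF and 23.2, 47 and 25.8 RPKM in LF+Ex and overlapped. Over 31 fatty acid synthesis genes the median was -0.07, beside -0.13 for all genes, with 4 lower (12.9%) and 0 higher, close to the 11.4% and 0.830% of all genes. Over 28 cholesterol genes it was -0.25, and -0.11 with median-of-ratios scaling beside 0.00 for all genes, with 1 higher and 1 lower (3.57% each).

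No gene of glucose production and insulin response was without overlap. Pck1, the gatekeeper of gluconeogenesis, stood at 1119, 849 and 902 RPKM in LF and 1888, 1869.8 and 753 RPKM in LF+Ex, where LF+Ex 1 and 2 were high and LF+Ex 3 was the lowest of the 6 (difference 0.54 ± 0.34). Ppargc1a, a coactivator of mitochondrial and gluconeogenic genes that exercise induces in muscle, stood at 1.67, 0.764 and 0.769 RPKM in LF and 2.27, 2.07 and 1.35 RPKM in LF+Ex, with LF 1 above LF+Ex 3 (difference 0.50 ± 0.19, and 0.29 with transcripts summed). G6pc and Igfbp1 overlapped, at 63.3, 90.8 and 51.9 RPKM in LF and 81.2, 44.4 and 72.8 RPKM in LF+Ex and at 28.8, 98.3 and 11.2 RPKM in LF and 21.6, 24.5 and 23 RPKM in LF+Ex. Of 35 genes 0 were without overlap in either direction. Amino acid breakdown and urea cycle genes had a median of 0.16 over 40 genes, beside -0.13 for all genes, with 0 in either direction.

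Bile acid genes included 1 higher and 2 lower members of 25 without overlap (4% and 8%, beside 0.830% and 11.4% of all genes), with a median of 0.00 beside -0.13. The higher one was Cyp7b1, given above, and the lower ones were transporters. Slco1a4, a sinusoidal uptake carrier, stood at 14.4, 16.3 and 16.9 RPKM in LF and 4.73, 10.3 and 7.21 RPKM in LF+Ex (difference -1.06 ± 0.29), with LF+Ex 1 lowest. Abcc2, the canalicular export pump MRP2, stood at 103, 120.3 and 107 RPKM in LF and 88.7, 102 and 77.2 RPKM in LF+Ex (difference -0.31 ± 0.12, and -0.15 with median-of-ratios scaling). Of 40 genes fixed by name for lipid, glucose, clock, stress and sex-biased functions, 2 were higher without overlap (Mup20 and C8a), 1 lower (Cyp2b9) and 37 overlapped. limma called 0 of the 40, and 7 had an unadjusted p under 0.05.

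Of 24 hepatokines 4 (16.7%) were lower without overlap, near the 11.4% of all genes, and 0 were higher. Angptl8, a secreted regulator of lipoprotein lipase, stood at 69.1, 50.9 and 89.8 RPKM in LF and 27, 49.4 and 38.3 RPKM in LF+Ex (difference -0.86 ± 0.36), Selenop, the selenium carrier of plasma, at 3384, 3945 and 3282 RPKM in LF and 2784, 2745 and 2968 RPKM in LF+Ex (difference -0.32 ± 0.15), and Lect2 and Cxcl1 had differences of -0.40 and -0.74. Fgf21, a fasting hepatokine, stood at 16.9, 39.6 and 5.68 RPKM in LF and 9.33, 3.06 and 28.6 RPKM in LF+Ex and overlapped. The difference of Selenop was -0.15 with median-of-ratios scaling. The list's median was -0.09, beside -0.13 for all genes.

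Plasma proteins of coagulation and complement were higher in 5 of 36 (13.9%) without overlap, beside 0.830% of all genes (4.19% with median-of-ratios scaling), with 1 lower (2.78%, beside 11.4%). They were F11, C6, C8a, C8b and C9. C9, which forms the membrane attack pore, stood at 59.9, 100.1 and 117 RPKM in LF and 163, 173 and 142 RPKM in LF+Ex (difference 0.83 ± 0.27), and the coagulation factor F11 at 16.6, 10.9 and 16.2 RPKM in LF and 18.7, 20.3 and 19.5 RPKM in LF+Ex (difference 0.42 ± 0.18). C6, C8a and C8b are also on the male-biased list, so both counts share them. Proteasome subunits were lower in 10 of 31 (32.3%) without overlap and higher in 0, with narrow ranges, as Psmc6 at 40.5, 44.6 and 44.3 RPKM in LF and 35.6, 33.7 and 34.9 RPKM in LF+Ex. Their median was -0.17, and -0.01 with median-of-ratios scaling, close to 0.00 for all genes. Ribosomal proteins were lower in 1 of 77, a share below the 11.4% of all genes. Heat-shock proteins were lower in 4 of 20 (20%) and small RNA processing genes in 4 of 12 (33.3%), shares above it. With median-of-ratios scaling the medians of these lists were 0.09, -0.03 and 0.01 in that order, close to 0.00 for all genes. Of 38 antioxidant genes 5 (13.2%) were lower, among them Gss, at 38.7, 63.4 and 31 RPKM in LF and 28.9, 28.3 and 27.2 RPKM in LF+Ex, with LF 2 highest. Of 44 xenobiotic genes 2 (4.55%) were higher, beside 0.830% of all genes (4.19% with median-of-ratios scaling), and 6 (13.6%) lower. The lower shares of the antioxidant and xenobiotic lists are near the 11.4% of all genes. Among the lower xenobiotic genes, Cyp2b9 is also on the female-biased list, so both counts share it. The lower ones include Cyp2c38 (difference -1.28 ± 0.33) and Ces1g (difference -0.74 ± 0.23). Nr1i3, which encodes the xenobiotic receptor CAR, was another of the lower ones, at 75.9, 79.6 and 106 RPKM in LF and 70.4, 62.1 and 60.9 RPKM in LF+Ex (difference -0.42 ± 0.18, and -0.20 with transcripts summed). Oxidative phosphorylation genes were lower in 8 of 76 (10.5%), close to the 11.4% of all genes, and higher in 1. Sod1 and Cat, enzymes that remove superoxide and peroxide, were on the antioxidant count, and their differences of -0.16 and -0.24 became 0.00 and -0.08 with median-of-ratios scaling.

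**Figure D4:**
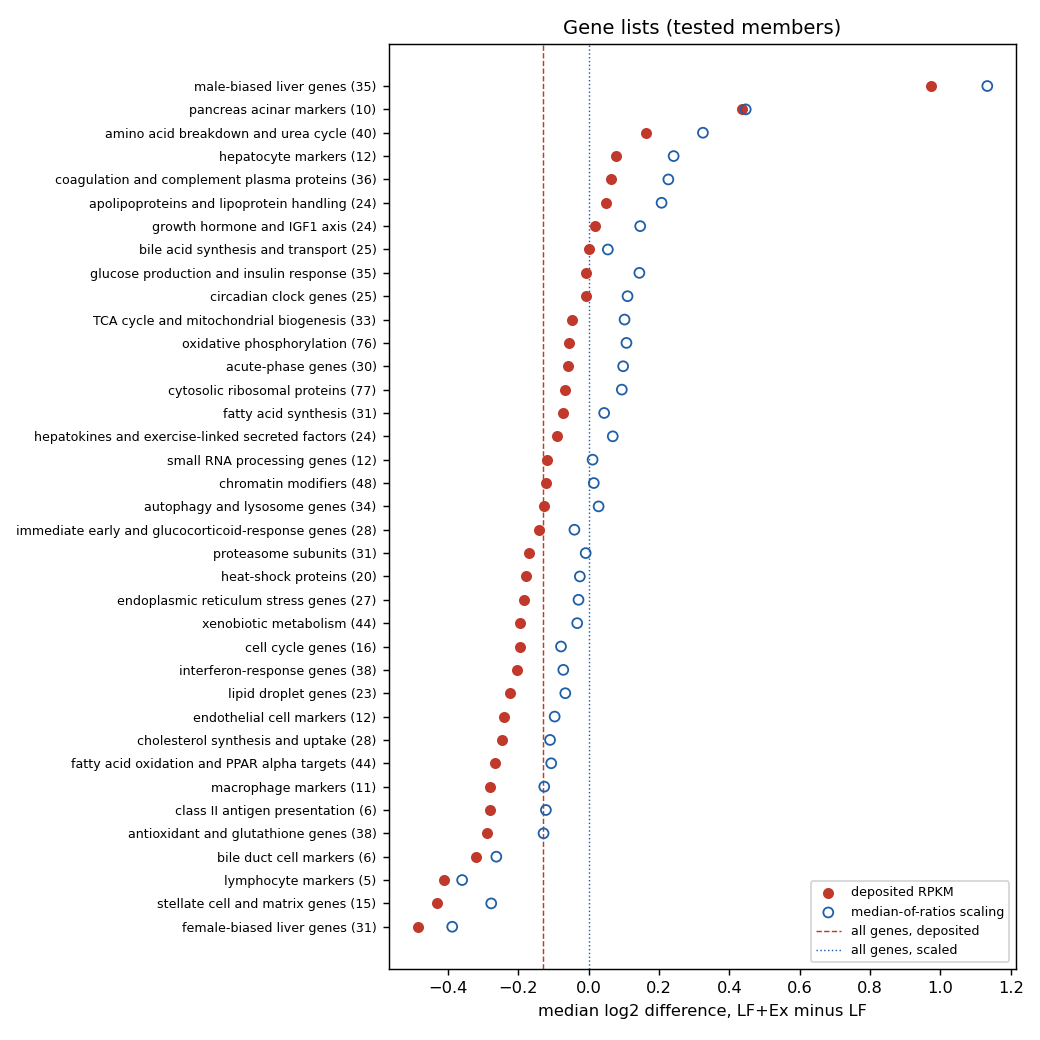
Median log2 difference, LF+Ex minus LF, of each list with at least 5 tested members, as deposited (red) and after median-of-ratios scaling (open blue), with the medians of all genes as vertical lines at -0.13 and 0.00. The male-biased list is farthest to the right at 0.97, and the female-biased list is farthest to the left at -0.49. Stellate cell and matrix genes at -0.43 and lymphocyte markers at -0.41 lie close to the latter. After scaling the female-biased, stellate and lymphocyte medians are -0.39, -0.28 and -0.36.

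Circadian clock genes separated libraries, not groups. Dbp, a clock output factor, stood at 64.1, 10.7 and 98.3 RPKM in LF 1, 2 and 3 and 63.5, 95.1 and 15.2 RPKM in LF+Ex 1, 2 and 3. LF 2 and LF+Ex 3 were both low. Ciart, a clock repressor, stood at 10.2, 0.344 and 15.6 RPKM in LF and 10.9, 24.2 and 0.71 RPKM in LF+Ex, and Per1, a core clock repressor, at 4.81, 0 and 3.24 RPKM in LF and 4.73, 8.01 and 0 RPKM in LF+Ex, with LF 2 and LF+Ex 3 listed at 0. Arntl, the activator BMAL1, was highest in the same 2 libraries, at 0.737, 4.24 and 0.35 RPKM in LF and 0.495, 0.193 and 2.03 RPKM in LF+Ex. The mean deviation of 25 clock genes was -0.50 in LF 2 and -0.62 in LF+Ex 3, against 0.02 to 0.26 in the other 4 libraries. No clock gene was without overlap. The labels give no time of day, and the part of these libraries in the results above was not tested beyond the values without them.

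**Figure D5:**
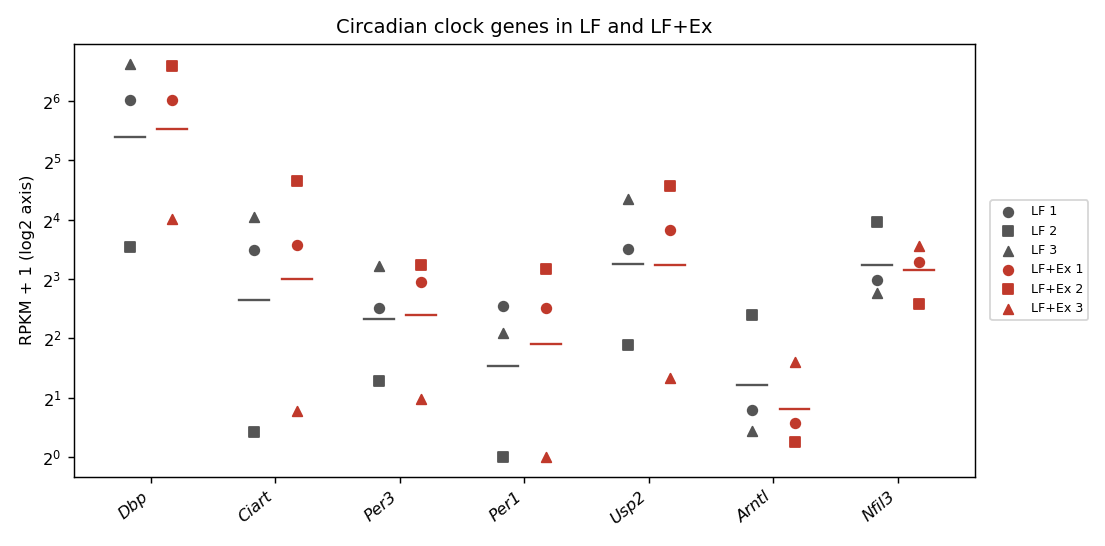
RPKM + 1 on a log2 axis of 7 circadian clock genes in the 3 LF (grey) and 3 LF+Ex (red) libraries, with a bar at the mean of the log2 values. LF 2 (grey square) and LF+Ex 3 (red triangle) are the low libraries for Dbp, Ciart, Per3, Per1 and Usp2 and the high ones for Arntl and Nfil3.

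Markers of some other cell types moved with single libraries. The 11 bile duct markers summed to 20.7 to 159 RPKM in LF, the highest in LF 2, and to 23.6 to 34.4 RPKM in LF+Ex. The 15 pancreas markers summed to 5.32 to 9.31 RPKM in LF and to 6.09 to 45.4 RPKM in LF+Ex, the highest in LF+Ex 1. Macrophage markers summed to 141 to 367 RPKM in LF and 153 to 211 RPKM in LF+Ex, and stellate cell and matrix genes to 106 to 295 RPKM in LF and 127 RPKM in each LF+Ex library, again with LF 2 highest. Of 6 tested bile duct, 10 pancreas, 11 macrophage and 15 stellate genes 0 were without overlap. Of 5 tested lymphocyte markers 1 (20%) was lower without overlap, and all 5 had a negative difference. The medians of the stellate and lymphocyte lists were -0.43 and -0.41, beside -0.13 for all genes. With median-of-ratios scaling they were -0.28 and -0.36, beside 0.00. Of 12 endothelial markers 3 were lower without overlap, and they summed to 157 to 183 RPKM in LF and 135 to 150.1 RPKM in LF+Ex. That count is 25% of the list, beside 11.4% of all genes. Adipocyte markers summed to 317 to 1436 RPKM in LF and 595 to 1495 RPKM in LF+Ex. The part of these cells in the gene results was not tested, and in whole liver fewer cells of a type and less RNA per cell cannot be told apart.

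Whether the difference with Ex depends on the diet was tested as LF+Ex minus LF against HF+Ex minus HF. No gene was called (0 of 10358, 0%), the smallest adjusted p was 0.694, and 525 genes had an unadjusted p under 0.05. Akr1b3, an aldose reductase, had one of the smallest p. It stood at 2.75, 3.0 and 0.739 RPKM in LF, was listed at 0 in all 3 LF+Ex libraries, and stood at 1.88, 0.679 and 0 RPKM in HF and 2.98, 1.64 and 1.65 RPKM in HF+Ex (interaction -2.41 ± 0.52, adjusted p = 0.694). Atp6v0c, a proton pump subunit, stood at 65.6, 36.8 and 35.5 RPKM in LF and 27.8, 17.6 and 19.4 RPKM in LF+Ex, and at 29.1, 29.2 and 31 RPKM in HF and 41.9, 69.1 and 63.1 RPKM in HF+Ex (interaction -1.93 ± 0.42, adjusted p = 0.694). Adrb3 had an interaction of 1.16 ± 0.26, Ppp2r5c of 0.87 ± 0.19 and a transcript without a symbol, NM_001168270, of 2.01 ± 0.41. The last was called with only the 4 groups compared, and without the pancreas libraries. The HF+Ex minus HF medians were -0.06 for male-biased and -0.06 for female-biased genes, beside -0.02 for all genes. On LF they were 0.97 and -0.49, beside -0.13, and 0 of these genes was called in the interaction.

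LF+Ex was compared directly with LF+CR, the other intervention on this diet, which uses the same 3 LF+Ex libraries but not the LF libraries. limma called 1059 genes, 280 higher in LF+Ex (2.70% of genes) and 779 lower (7.52%). Of 35 male-biased genes 26 were higher and of 31 female-biased genes 22 were lower in LF+Ex, with medians of 2.65 and -1.96. The filter reads all 18 libraries, so a gene near 0 in LF+Ex can be tested because LF+CR is high. With a mean of at least 5 RPKM, 12 of 20 female-biased genes were called, with a median of -1.16. Of male-biased genes 25 of 32 were called in that setting, with a median of 2.67. Without a filter 22 of 38 and 26 of 39 were called, with medians of -1.19 and 2.50. Mup20 stood at 151, 498 and 242 RPKM in LF+CR 1, 2 and 3 and at 13873, 17743 and 13665 RPKM in LF+Ex, a difference of 5.83 ± 0.44 (adjusted p = 2.07e-06). C8a stood at 3.13, 8.95 and 8.33 RPKM in LF+CR and 182, 162 and 138 RPKM in LF+Ex (difference 4.46 ± 0.30, adjusted p = 6.94e-07). The groups were far apart in both genes.

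Female-biased genes were lower in LF+Ex than in LF+CR. Cux2 stood at 7.23, 4.45 and 8.82 RPKM in LF+CR and 0.090, 0.00616 and 0 RPKM in LF+Ex, a difference of -2.88 ± 0.18 (adjusted p = 4.41e-07). Cyp2b13 stood at 44.9, 15 and 40.7 RPKM in LF+CR and 0, 0 and 0.147 RPKM in LF+Ex, a difference of -4.90 ± 0.40 (adjusted p = 5.48e-06). Slc22a26 and Slc22a27 differed by -3.75 ± 0.24 and -3.76 ± 0.36, and Cyp4a32 was higher in LF+Ex by 1.71 ± 0.15. The LF+CR mean was the lowest of the 6 groups for Mup20, C8a and Cyp4a32 and the highest for Cux2, Cyp2b13, Slc22a26 and Slc22a27.

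Beside 7.52% of all genes lower and 2.70% higher, 19 of 28 cholesterol genes were lower in LF+Ex than in LF+CR, and 13 of 31 fatty acid synthesis genes, while 7 of 44 fatty acid oxidation genes and 11 of 36 coagulation and complement genes were higher. In the other direction, 1 fatty acid synthesis gene was higher and 2 coagulation and complement genes were lower. The count of called genes varied with the libraries left out. It was 379, 456 and 973 without LF+CR 1, 2 and 3 and 415, 943 and 483 without LF+Ex 1, 2 and 3. It was 116 without the 3 libraries with pancreatic transcripts, which takes a library from both groups and so also lowers power. Without those 3 libraries 12 male-biased genes were called higher and 13 female-biased genes lower, all of them among the 26 and 22. In the same setting 5 cholesterol genes were lower, and of fatty acid synthesis genes 3 were lower and 2 higher. There 1 fatty acid oxidation gene and 6 coagulation and complement genes were higher. Of the 116 genes called in that setting, among 10358 tested, 44.0% were higher. With all 18 libraries 26.4% of the called genes were higher as deposited, 57.6% with median-of-ratios scaling and 52.7% with quantile normalization.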

How the data were processed

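Liver polyA RNA of 18 libraries, 3 in each of 6 groups, was measured by RNA sequencing. The authors deposited 1 RPKM value per RefSeq transcript and library, and the submitters' processing notes name TopHat 1.4.1, Cufflinks 1.3.0 and mm10. All 550476 values of the joint table equalled those of the single-library files. Symbols came from the RefSeq gene table for 29438 of 30582 rows and from GENCODE for 179, and 965 kept their identifier. Of 24040 genes, 3992 had several rows, and the row with the highest mean was used. RPKM carries no counts. Read totals per library, 23.8 to 45.6 in units of 1e6 reads, were estimated from single-row genes with annotated transcript lengths. The lowest level at which RPKM times length piled up was taken as 1 read, so the totals depend on those lengths. Intervals for single values are not given.

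The test ran over 10358 genes (1 RPKM or more in 3 or more libraries) on log2(RPKM + 1), a scale that understates differences of low genes. limma 3.58.1 (R 4.3.3) was fitted to all 18 libraries with 6 group means, an intensity trend and 12 residual degrees of freedom. P-values were adjusted by the Benjamini-Hochberg method over all tested genes, two-sided, and called at 0.05. Contrasts were LF+Ex minus LF, the interaction with HF, and LF+Ex minus LF+CR. Named genes were the 12 per direction with the smallest p among genes without overlap and a mean of at least 2 RPKM in 1 of both groups, since none was called, plus 40 genes and 40 lists. Members and lists were chosen with earlier results of these data known. Other genes named with values, and those drawn in the plots of sex-biased and clock genes, were picked from the lists after their values were seen. Some of the genes in the lists are not reported here by name. The fit was tested on simulated data with known changes. Alternatives covered the pseudocount, filter, scaling, variance model, transcript choice, libraries fitted, replicate block and libraries left out. An exact 0 in these files may be a failed estimate, as for Alb, so a 0 is only the listed value.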

Additional observations from a re-analysis of the deposited data

How the results depend on the processing

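Of 2197 gene results over all alternatives, 2134 kept their direction and their side of the threshold, 10 passed only in the alternative, 0 were lost and 53 reversed. Much of this agreement was fixed in advance. No gene was called in LF+Ex against LF or in the interaction, so none could be lost there. The genes checked against LF+CR were among those with the smallest p. Leaving out a library of a group outside a comparison cannot change its differences. Genes called between LF+Ex and LF numbered 2 with a pseudocount of 0.1 (Acsl3 and Slc22a26), 1 with only the groups compared (Repin1), 4 without LF 2 and LF+Ex 3, and 0 to 4 leaving out single libraries. The median of female-biased genes was -0.91 with a pseudocount of 0.1. Female-biased genes without overlap numbered 5 of 20 (25%) with a mean of at least 5 RPKM and 5 of 31 (16.1%) with quantile normalization. They numbered 16 of 31 (51.6%) without LF 2 and LF+Ex 3, and 8 to 16 of 31 leaving out single libraries. The shares of all genes lower in the first 3 of these settings were 13.1%, 3.55% and 19.8%. The bile duct libraries are LF 2 and HF+CR 3. The male-biased count ran from 17 to 26 on leaving out single libraries. Fewer libraries make a lack of overlap more frequent by construction. The interaction called 1 gene with only the groups compared, 1 without the pancreas libraries (NM_001168270 both times), and 0 to 1 leaving out single libraries (Alb, without HF 1). LF+Ex against LF+CR called 545 genes with only the groups compared, 116 without the pancreas libraries, 612 without LF 2 and LF+Ex 3, and 379 to 1238 leaving out single libraries. With the replicate block, 0 genes were called between LF+Ex and LF, 0 in the interaction and 1012 against LF+CR. Same-numbered LF and LF+Ex libraries deviated from their group means with r = 0.007, -0.18 and -0.24 across genes. With 3 libraries a group these values cannot decide whether the numbers mark pairs, and the main fit assumes none.

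Differences that changed sign are given as LF+Ex minus LF unless named, and the cause was not tested. With a pseudocount of 0.1 it was 0.00799 for Per2. With median-of-ratios scaling it was 0.12 for Per2, 0.10 for G6pc and 0.0417 for Cpt1a. With quantile normalization it was 0.15 for Per2, 0.0506 for G6pc and 0.0136 for Fos. Without the bile duct libraries it was 0.16 for G6pc, -0.79 for Dbp, 0.33 for Igfbp1, -0.42 for Scd1, -0.10 for Acly, 0.20 for Arntl and 0.25 for Cdkn1a. Without LF 2 and LF+Ex 3 it was 0.0672 for G6pc, -0.0293 for Dbp, 0.33 for Igfbp1, -0.34 for Scd1 and -0.0109 for Acly. With transcripts summed it was -0.18 for Repin1, -0.31 for Ppp2r5c and -0.0521 for Ppp2r5c (interaction). Without the pancreas libraries it was 0.00641 for Fasn and -0.0984 for Dbp. Leaving out single libraries gave differences of -0.42 to 0.34 for Per2, -0.24 to 0.20 for G6pc, -0.23 to 0.00413 for Cpt1a, -0.31 to 0.0638 for Fos, -0.62 to 0.15 for Fasn, -0.79 to 0.90 for Dbp, -1.18 to 0.33 for Igfbp1, -0.42 to 0.36 for Scd1, -0.10 to 0.11 for Acly, -0.79 to 0.20 for Arntl, -1.70 to 0.25 for Cdkn1a, -2.24 to 0.28 for Cidea, -0.77 to 0.38 for Plin4, -0.68 to 0.22 for Srebf1, -0.0133 to 0.73 for Cyp4a12a, -0.0543 to 1.31 for Mt1, -1.39 to 0.045 for Fgf21, -0.81 to 0.20 for Cyp8b1 and -0.91 to 0.22 for Hspa1b. The read totals, 23.8 to 37 in units of 1e6 reads for the 6 libraries, and 3 libraries a group limit the precision of genes near 1 RPKM.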
